A study of Mus musculus with 2 samples.

Results

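The proteasome subunit genes were described here as the genes whose symbol starts with Psma, Psmb, Psmc, Psmd, Psme, Psmf or Psmg, without the immunoproteasome subunits Psmb8, Psmb9 and Psmb10. The rule gave 46 genes of the 23288 genes with a deposited level. They divide into 16 genes of the 20S core, 17 of the 19S regulatory cap, 5 activators and inhibitors, 7 assembly factors, and Psmc3ip, which shares the prefix but encodes a partner protein of meiotic recombination and no subunit. The proteasome is the protease complex that degrades proteins tagged with ubiquitin. Its core is a barrel of stacked alpha and beta rings with the proteolytic sites inside, and the cap binds ubiquitin chains, removes them, unfolds the substrate with a ring of ATPases and feeds it through the alpha ring. Activated B cells use it to clear misfolded secretory proteins and to release NF-kappaB from its inhibitors, and Nedd4 is one of the ubiquitin ligases whose products can reach it.

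The RNA came from splenic B cells of chimeric mice, in which the blood system had been rebuilt from donor fetal liver. The Nedd4-/- group was 1 library and the Nedd4+/+ group was 1 library. The strain background of both was a mix of B6 and 129 backcrossed to B6. Cells of both genotypes were cultured for 72 hours in RPMI medium with the bacterial lipopolysaccharide LPS and the cytokine IL-4, a stimulus that makes B cells divide and drives class switching to IgG1. The labels give neither the age of the animals nor the number pooled. Levels are in RPKM, a read density corrected for transcript length and for the mapped reads of the library. Each genotype being 1 library, no difference below has a replicate check, and genotype was not tested. Intervals are exact Clopper-Pearson 95% intervals of the ratio of read pairs without pseudocount, and cover counting error only. In bulk RNA, fewer cells of a type and less RNA per cell cannot be told apart.

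The libraries differed in more than their genotype label. Nedd4 itself had 1.95 RPKM in Nedd4-/- cells, against 7.59 RPKM in Nedd4+/+ cells. Xist, which coats the silenced X, had 0.0958 RPKM in Nedd4-/- cells, against 23.7 RPKM in Nedd4+/+ cells. The Y-linked genes Eif2s3y and Ddx3y had 18.8 and 10.6 RPKM in Nedd4-/- cells, against 5.14 and 2.63 RPKM in Nedd4+/+ cells. These X- and Y-linked differences lie between the same libraries as every ratio given here, and whatever underlies them cannot be told apart from genotype. Depth recovered from the values was 6.17 gigabases for Nedd4-/- and 8.40 gigabases for Nedd4+/+, of which transcripts of known length held 24.4% and 32.6%. All 6 B cell markers were well above 1 RPKM in both libraries, from 15.6 RPKM for Cd79a to 155 RPKM for Cd79b in Nedd4-/- cells and from 13.9 RPKM to 183 RPKM for the same genes in Nedd4+/+ cells. The 3 T cell and 4 myeloid markers all had a mean under 1 RPKM, with Lyz2 the highest at 0.772 RPKM in Nedd4-/- and 0.232 RPKM in Nedd4+/+ cells, and of 3 erythroid markers Hba-a1 alone passed it, at 0.897 RPKM in Nedd4-/- and 1.74 RPKM in Nedd4+/+ cells.

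Proteasome genes were expressed at high levels in both libraries, and none differed by 2-fold. Of the 46 genes, 44 had a mean of 1 RPKM or more and were compared. Their median level was 18.1 RPKM in Nedd4-/- cells and 26.9 RPKM in Nedd4+/+ cells, where all genes compared had medians of 4.28 and 5.69 RPKM. As deposited, 42 of the 44 were lower in the Nedd4-/- library, a direction shared by 92.7% of the 9405 genes compared. With 1 RPKM added to both values, no member was at least 2-fold lower (1.15% of all genes compared) and none at least 2-fold higher (0.138%). At least 1.5-fold lower, a threshold set after the values were seen, were 3 members, Psmd3, Psmd8 and Psmb5, or 3 of 44 where 11.6% of all genes were.

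**Figure D1:**
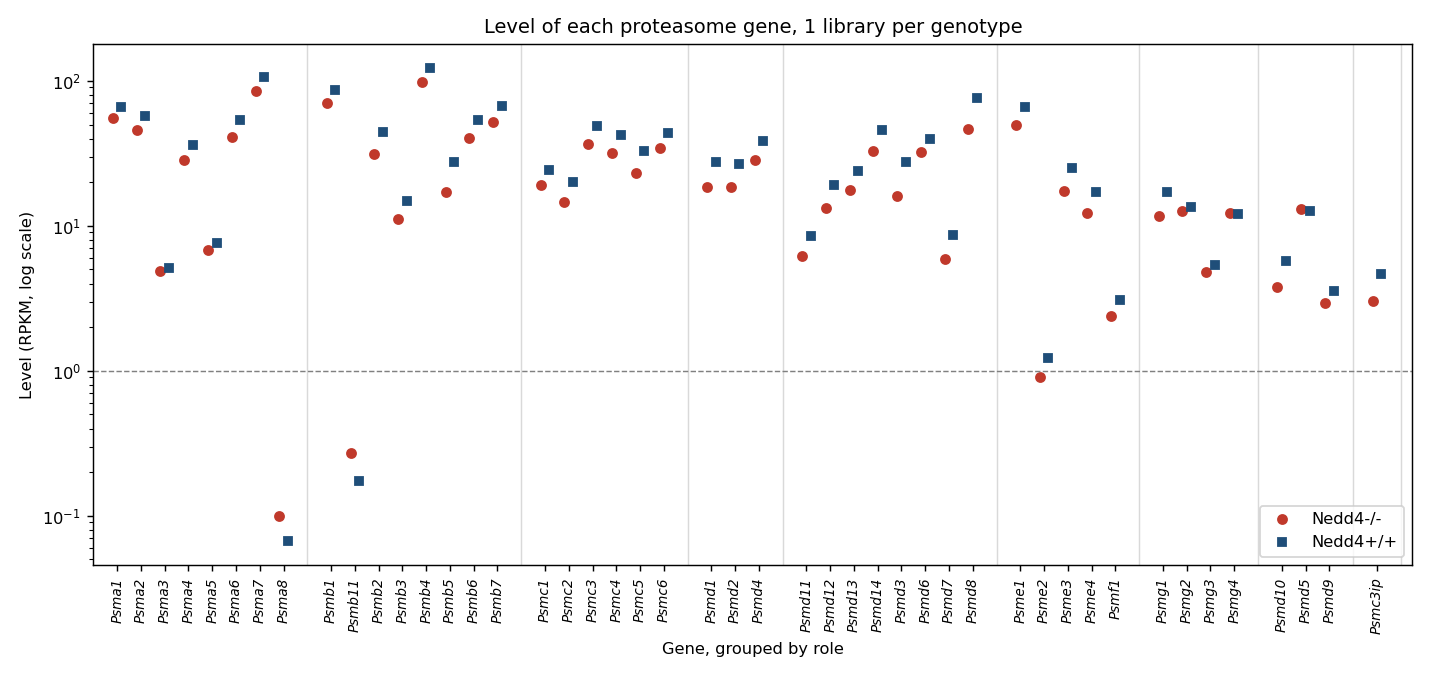
Level of each of the 46 proteasome genes in RPKM on a log axis, grouped by role, with circles for the Nedd4-/- library and squares for the Nedd4+/+ library and a dashed line at 1 RPKM. Psma8 and Psmb11 lie below the line in both libraries, and Psmd5 and Psmg4 are the only genes above it with the circle higher than the square.

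The common shift of the libraries was set aside by subtracting the median log2 ratio of all genes compared, which was -0.31. Values after this step are called relative log2 ratios. The median of the 44 members was -0.40 as deposited and -0.09 in relative terms. Below the median of all genes lay 32 members, and above it 12, against 50% of all genes by construction. This split rests on the added 1 RPKM: without it 25 members lay below the median of all genes, which was then -0.39, and 19 above, and the median of the members lay 0.025 under it. Counts below and above the median are given both ways for each role. None was at least 2-fold lower in relative terms (0.223% of all genes) and none at least 2-fold higher (0.276%). The interquartile range of the relative log2 ratios of the members was 0.19 and that of all genes 0.28. Inside the interquartile range of all genes, from -0.14 to 0.14, were 23 members (52.3%), close to the 50% of all genes. The members had higher levels than genes at large, and their spread was not compared with that of genes of like level. All 44 members lay inside the central 90% of all genes, which ran from -0.43 to 0.37. The small negative median moved with level. Relative log2 ratios of all genes declined from a median of 0.17 in the lowest decile of level to -0.09 in the highest decile, and relative to genes of the same level decile the members had a median of 0.00, with 21 of 44 below.

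**Figure D2:**
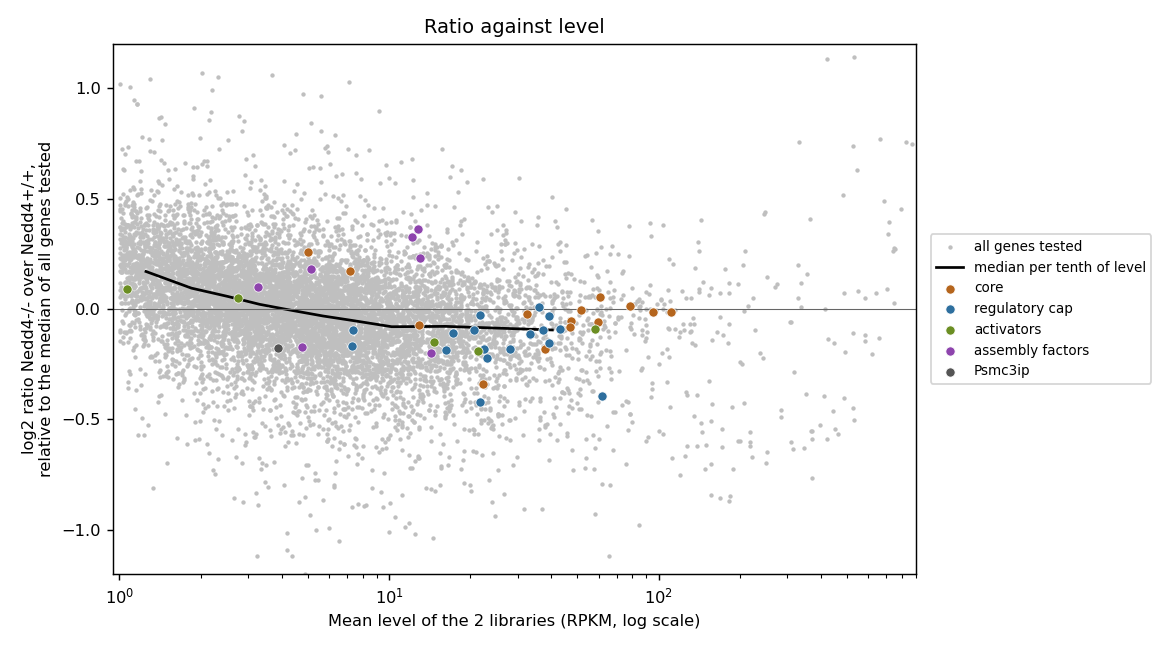
Relative log2 ratio of Nedd4-/- over Nedd4+/+ against the mean level of both libraries in RPKM on a log axis, for all genes compared in grey and the proteasome genes in colour by category, with the median of each level decile as a black line. The proteasome genes lie close to the line, farthest above it the assembly factors Psmd5, Psmg4 and Psmg2 and the core gene Psma3, and farthest below it Psmd3, Psmd8 and Psmb5. Of the grey genes, 30 lie outside the axes.

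The order of the genes was nearly the same in both libraries. Across the 44 genes, which are not independent replicates, the Pearson correlation between the log2 levels of both libraries was 0.993. Psmb4, a structural beta subunit, was the highest in both, and Psme2 the lowest. The largest steps in rank were those of Psmb5, at rank 25 in Nedd4-/- and 20 in Nedd4+/+ cells, and of Psmc1, at rank 20 in Nedd4-/- and 25 in Nedd4+/+ cells.

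Promoter sequences are shown for 5 members that mark the ends of the range of ratios and have an entry in the RefSeq promoter table of build GRCm38.p6: Psmb5 and Psmd8 among the lowest, Psmd5 and Psmg4 at the top, and Psmb6, a catalytic subunit near the middle. Each is the 120 bases that end just before the annotated start. They lie at chr14:54617996-54618115 on the minus strand (Psmb5), chr11:70525237-70525356 on the plus strand (Psmb6), chr7:29180674-29180793 on the minus strand (Psmd8), chr2:34870963-34871082 on the minus strand (Psmd5) and chr13:34162844-34162963 on the plus strand (Psmg4). Capitals mark matches, on either strand, to 3 short motifs: TGACNNNGC, the core of the element bound by the NRF1 protein, which Nfe2l1 encodes and which is known to induce proteasome genes in mammals when the proteasome is inhibited; CCAAT, the box bound by NF-Y; and GGGCGG, the GC box.
Psmb5: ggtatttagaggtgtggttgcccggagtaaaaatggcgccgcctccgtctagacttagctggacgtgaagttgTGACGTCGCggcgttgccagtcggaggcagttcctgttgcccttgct
Psmb6: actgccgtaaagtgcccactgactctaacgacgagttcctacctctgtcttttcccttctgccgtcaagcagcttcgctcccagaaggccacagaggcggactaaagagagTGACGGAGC
Psmd8: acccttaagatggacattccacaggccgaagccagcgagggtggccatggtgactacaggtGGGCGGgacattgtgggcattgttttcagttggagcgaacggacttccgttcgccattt
Psmd5: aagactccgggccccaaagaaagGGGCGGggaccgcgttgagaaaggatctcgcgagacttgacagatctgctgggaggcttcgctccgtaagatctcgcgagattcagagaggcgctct
Psmg4: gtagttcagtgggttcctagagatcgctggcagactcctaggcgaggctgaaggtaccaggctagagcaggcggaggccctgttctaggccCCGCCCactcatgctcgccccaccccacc

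The printed promoters of both catalytic subunits held TGACNNNGC, and those of Psmd8, Psmd5 and Psmg4 held the GC box. In the 250 bases before the start, TGACNNNGC was present in 5 of 38 members with an entry (13.2%) and in 14.1% of 6753 genes compared that have one. CCAAT was present in 36.8% of members and 41.2% of genes compared, and GGGCGG in 55.3% and 65.5%. All 3 shares were close to or below those of expressed genes at large, and a match describes letters and not a bound site. The members with and without a motif had like ratios: the median relative log2 ratio was -0.08 in the 5 with TGACNNNGC and -0.08 in the 32 without.

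Genes of the alpha ring, which gates the entry to the core, lay at or slightly above the median of all genes. Of 7 compared, 4 were below and 3 above, with a median relative log2 ratio of 0.00 and a range of -0.05 to 0.26. Without the added 1 RPKM all 7 were above, by 0.015 to 0.32. Psma7 was the highest of the ring at 84.6 RPKM in Nedd4-/- cells and 106 RPKM in Nedd4+/+ cells (relative log2 ratio -0.01). Psma1 was at 55.3 and 66.3 RPKM in Nedd4-/- and Nedd4+/+ cells (0.06; interval of the ratio as deposited -0.34 to -0.18), and Psma6 at 41.2 and 53.4 RPKM (-0.05; -0.47 to -0.28). These intervals overlap. Psma2 stood at 45.8 RPKM in Nedd4-/- and 57.3 RPKM in Nedd4+/+ cells and Psma4 at 28.6 and 36.3 RPKM. Psma3 and Psma5 were the low members and had the highest ratios: Psma3 stood at 4.90 RPKM in Nedd4-/- cells and 5.12 RPKM in Nedd4+/+ cells (relative log2 ratio 0.26) and Psma5 at 6.79 and 7.59 RPKM (0.17). The annotation places processed pseudogenes of both elsewhere in the genome, and 20.6% and 27.1% of their words (stretches of 1 read length) also occur in those copies, so that their levels depend on how shared reads were assigned and are uncertain. Psma8, the subunit of the spermatogenic proteasome that replaces Psma7, stood at 0.10 RPKM in Nedd4-/- and 0.0667 RPKM in Nedd4+/+ cells, from about 5.18 and 4.70 read pairs, and was not compared.

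Genes of the beta ring, which carries the active sites, lay close to the median of all genes, at a median of -0.07 over 7 genes, or -0.014 without the added 1 RPKM. Of the 7, 6 were below, or 4 without the added 1 RPKM, and the range was -0.34 to 0.02. The catalytic subunits are Psmb6, with caspase-like, Psmb7, with trypsin-like, and Psmb5, with chymotrypsin-like activity. Psmb6 stood at 40.4 RPKM in Nedd4-/- and 53.4 RPKM in Nedd4+/+ cells (relative log2 ratio -0.08) and Psmb7 at 52.1 and 67.6 RPKM (-0.06). Psmb5 stood at 17.1 RPKM in Nedd4-/- and 27.5 RPKM in Nedd4+/+ cells, a relative log2 ratio of -0.34 that lay at percentile 7.57 of all genes compared. Its interval as deposited, -0.84 to -0.525, ended just below that of Psmb6 (-0.517 to -0.29) and below that of Psmb7 (-0.46 to -0.29). Of the words of Psmb5, 24.4% are shared with a processed pseudogene and an overlapping microRNA gene, and 19.8% of those of Psmb7 with the neighbouring gene Nek6, so that both levels are uncertain. Psmb2, a structural subunit, was at 31.3 RPKM in Nedd4-/- and 44.4 RPKM in Nedd4+/+ cells (-0.18). The other structural subunits Psmb1, Psmb3 and Psmb4 had relative log2 ratios of 0.02, -0.07 and -0.01, with Psmb4 at 98.2 RPKM in Nedd4-/- and 123 RPKM in Nedd4+/+ cells. Psmb11, the subunit of the thymic cortex, was at 0.272 and 0.174 RPKM and was not compared.

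The inducible counterparts of the catalytic subunits were abundant in these cells. Psmb8, which takes the place of Psmb5, stood at 72.6 RPKM in Nedd4-/- cells and 89.1 RPKM in Nedd4+/+ cells, or 4.25 and 3.24 times the level of Psmb5. Psmb9 was at 1.24 and 1.12 times Psmb6, and Psmb10 at 0.257 and 0.258 times Psmb7. The ratio of Psmb8 to Psmb5 thus differed by 0.39 on the log2 scale, Nedd4-/- minus Nedd4+/+, that of Psmb9 to Psmb6 by 0.15 and that of Psmb10 to Psmb7 by -0.01. The levels of Psmb5 and Psmb7 are uncertain, as given above, and 8.9% of the words of Psmb9 are shared with Tap1. These ratios are therefore uncertain too.

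**Figure D3:**
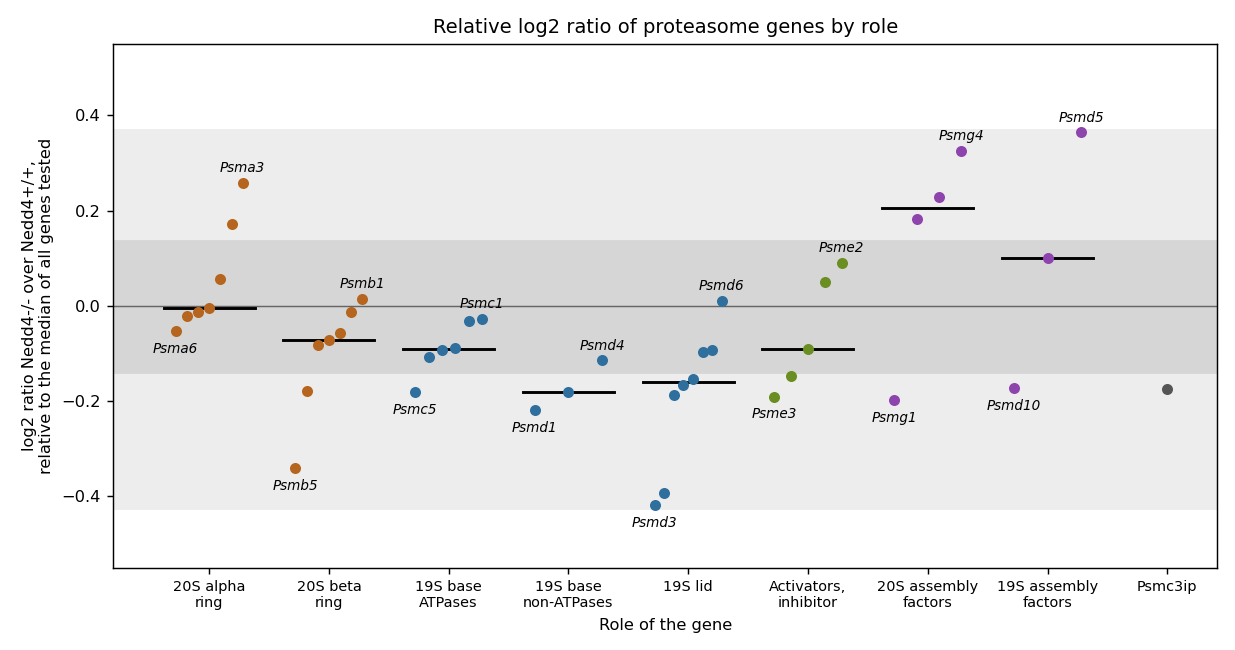
Relative log2 ratio of Nedd4-/- over Nedd4+/+ of the 44 genes compared, 1 point per gene, by role, with a bar at the median of each role. The dark and light bands hold the interquartile range and the central 90% of all genes compared. Psmd3 at -0.42 and Psmd5 at 0.36 are the extremes, and all points lie inside the light band.

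Genes of the 19S cap taken by the symbol rule had a lower median ratio than those of the core. The rule leaves out other genes of the cap, some of them described below. Of these, Uchl5 (0.21), Adrm1 (0.16) and Shfm1 (0.05) lay above every cap gene counted here, and Txnl1 (-0.17) did not. Shfm1, a lid subunit, stood at 60.2 RPKM in Nedd4-/- and 72.5 RPKM in Nedd4+/+ cells. Of 17 genes, 16 were below the median of all genes, with a median relative log2 ratio of -0.11 over the cap and -0.02 over the 14 core genes. Without the added 1 RPKM 14 cap genes and 4 core genes were below, with medians of -0.074 and 0.051. All 6 ATPases, which form the ring that unfolds substrates and opens the core, were below, or 4 of them without the added 1 RPKM, in a narrow range from -0.18 (Psmc5) to -0.03 (Psmc1), and their levels were also alike, from 14.7 to 37.0 RPKM in Nedd4-/- cells and from 19.98 to 49.1 RPKM in Nedd4+/+ cells. Psmc3 was the highest, at 37.0 RPKM in Nedd4-/- and 49.1 RPKM in Nedd4+/+ cells, and Psmc2 the lowest, at 14.7 and 19.98 RPKM. Psmc5 stood at 23.1 and 32.9 RPKM (interval -0.63 to -0.40), Psmc1 at 19.03 and 24.4 RPKM (-0.48 to -0.24), Psmc4 at 31.9 and 42.6 RPKM (-0.51 to -0.32) and Psmc6 at 34.3 and 43.9 RPKM (-0.43 to -0.28). The intervals of all 6 overlap, and an order of ratios within the ATPase ring was not tested. Relative to genes of the same level decile the ATPases had a median of 0.00.

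The large base subunits Psmd1 and Psmd2 hold the ubiquitin receptors and shuttle proteins. Psmd1 stood at 18.6 RPKM in Nedd4-/- and 27.4 RPKM in Nedd4+/+ cells (relative log2 ratio -0.22) and Psmd2 at 18.6 and 26.5 RPKM (-0.18). Psmd4, a receptor for ubiquitin chains, was at 28.4 and 38.5 RPKM (-0.11). All 3 were below the median of all genes, with and without the added 1 RPKM.

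The lid, which carries the deubiquitinase and scaffold subunits, held the 2 lowest ratios of all members. Psmd3, a scaffold subunit, stood at 16.1 RPKM in Nedd4-/- and 27.4 RPKM in Nedd4+/+ cells, a relative log2 ratio of -0.42 (interval as deposited -0.87 to -0.66). Psmd8, which joins the lid last in yeast, stood at 46.5 and 76.5 RPKM, a relative log2 ratio of -0.39 (-0.79 to -0.64). These ratios lay at percentiles 5.22 and 5.86 of all genes compared. The intervals of both lie below that of Psmd6, a lid subunit at 32.2 RPKM in Nedd4-/- and 39.9 RPKM in Nedd4+/+ cells (relative log2 ratio 0.01; -0.41 to -0.21). Psmd14, the deubiquitinase that removes ubiquitin chains before degradation, was at 32.8 and 45.7 RPKM (-0.15). Psmd12 (-0.19), Psmd7 (-0.17), Psmd13 (-0.10) and Psmd11 (-0.09) lay between. Psmd11, whose level is known to limit proteasome assembly in human embryonic stem cells, and Psmd7, the partner of Psmd14, were the lowest of the lid in level, at 6.18 and 5.91 RPKM in Nedd4-/- cells and 8.51 and 8.64 RPKM in Nedd4+/+ cells. The 8 lid genes taken by the symbol rule had a median of -0.16, and 7 of them lay below every alpha ring gene. The rule leaves out the lid subunit Shfm1 (0.05), which lay inside the range of the alpha ring. Psma6, the lowest gene of that ring, was at percentile 39.6 of all genes compared, so that many other genes are also lower than the whole ring. Relative to genes of the same level decile the median of the lid was -0.08, against 0.09 for the alpha ring.

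Activators bind the ends of the core in place of the cap. Psme1, which with Psme2 forms the interferon-inducible PA28 ring, stood at 49.8 RPKM in Nedd4-/- and 66.3 RPKM in Nedd4+/+ cells (relative log2 ratio -0.09). Its partner Psme2 was listed at 0.908 and 1.23 RPKM, from about 22.0 and 40.6 read pairs, although the proteins are known to assemble in near-equal numbers. The near-identical Psme2b shares 43.6% of its words, and the level of Psme2 is uncertain. Psme3, the nuclear PA28 subunit, was at 17.5 RPKM in Nedd4-/- and 25.2 RPKM in Nedd4+/+ cells (-0.19), and Psme4, which encodes PA200, at 12.2 and 17.2 RPKM (-0.15). Psmf1, which encodes the inhibitor PI31, was low, at 2.40 and 3.08 RPKM (0.05). The 5 genes had a median of -0.09, within the range of the core. Of the 5, 3 were below the median of all genes, or 4 without the added 1 RPKM.

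Assembly factors taken by the symbol rule had the highest median ratio of the 4 categories. The rule leaves out Pomp, an assembly factor of the core with a higher level than any counted here. Pomp stood at 40.5 RPKM in Nedd4-/- and 54.0 RPKM in Nedd4+/+ cells, below the median of all genes (relative log2 ratio -0.09). The median relative log2 ratio of the assembly factors counted was 0.18 over 7 genes. Of the 7, 5 were higher than the median gene and also than every cap gene, and 2 higher than every core gene. These counts were the same without the added 1 RPKM. The highest cap gene, Psmd6, lay at percentile 52.0 of all genes compared, so that many other genes also exceed every cap gene. The highest core gene, Psma3, lay at percentile 89.2. The chaperones Psmg1 to Psmg4 build the alpha ring, Psmg1 in a pair with Psmg2 and Psmg3 with Psmg4. Psmg4 stood at 12.2 RPKM in Nedd4-/- and 12.1 RPKM in Nedd4+/+ cells (relative log2 ratio 0.33; interval as deposited -0.25 to 0.28), Psmg2 at 12.7 and 13.5 RPKM (0.23; -0.27 to 0.09) and Psmg3 at 4.84 and 5.39 RPKM (0.18; -0.49 to 0.17). Psmg1 was apart from its partner, at 11.6 RPKM in Nedd4-/- and 17.0 RPKM in Nedd4+/+ cells (-0.20; -0.73 to -0.37). Among the chaperones of the cap base, Psmd5 stood at 13.1 RPKM in Nedd4-/- and 12.6 RPKM in Nedd4+/+ cells, the highest ratio of all members (0.36; -0.04 to 0.15; percentile 94.9), Psmd9 at 2.95 and 3.58 RPKM (0.10) and Psmd10, which encodes gankyrin, at 3.80 and 5.72 RPKM (-0.17). The intervals of Psmg1 and Psmd10 (-0.87 to -0.32) lay below those of Psmg4, Psmg2 and Psmd5 but overlap those of Psmg3 and Psmd9 (-0.52 to -0.041). Relative to genes of the same level decile their median was 0.21. Psmc3ip, the meiotic gene, was at 3.05 and 4.68 RPKM (-0.17), and 23.9% of its words are shared with the overlapping gene Mlx.

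As summed levels, the core had 587 RPKM in Nedd4-/- cells and 749 RPKM in Nedd4+/+ cells, a log2 ratio of -0.35, the cap 396 and 555 RPKM (-0.49), the activators 82.8 and 113 RPKM (-0.45) and the assembly factors 61.2 and 69.8 RPKM (-0.19). The same ratio over all genes compared was -0.39. Core and assembly factors lay above it and cap and activators below, by 0.20 or less. These sums leave out Shfm1, Pomp and other genes of the complex that the symbol rule does not take.

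Counting error was smaller than these differences for part of the members. Without pseudocount the median of all genes compared was -0.39. The intervals of 26 members held that value, those of 10 lay below it (Psmb5, Psmc5, Psmd1, Psmd2, Psmd3, Psmd8, Psmd12, Psmd14, Psme3 and Psme4) and those of 8 above (Psma1, Psma2, Psma3, Psmb1, Psmb4, Psmg2, Psmg4 and Psmd5). The same shares over all genes compared were not computed, so these counts cannot be read as a trait of the proteasome genes. The intervals of the members spanned 0.11 to 1.6 on the log2 scale, with a median of 0.22. Transcript copies touched 16 members, which share at least 1 word with another annotated gene, and the 13 that share 5% or more had a median level of 11.1 RPKM in Nedd4-/- and 14.8 RPKM in Nedd4+/+ cells, against 28.4 and 38.5 RPKM for the 31 others. Their median relative log2 ratios were -0.07 and -0.09.

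Genes that work with the proteasome were described from lists written from textbook knowledge. None of them was at least 2-fold lower (1.15% of all genes compared) and none at least 2-fold higher (0.138%). Of 11 proteasome-associated genes 8 lay above the median of all genes, with a median of 0.12. The highest were Uchl5, a deubiquitinase of the cap, at 7.34 RPKM in Nedd4-/- and 7.97 RPKM in Nedd4+/+ cells (relative log2 ratio 0.21), Zfand5, a proteasome-binding protein (0.20), and Adrm1, a ubiquitin receptor of the cap (0.16), and the lowest was Txnl1, a thioredoxin-like protein of the cap (-0.17). Of 6 ubiquitin supply genes 4 lay below, among them the polyubiquitin gene Ubb, at 70.7 RPKM in Nedd4-/- and 116 RPKM in Nedd4+/+ cells (-0.40), and the activating enzyme Uba1 (-0.26). Of 9 genes of shuttle factors and the Vcp segregase 7 lay below, with Rad23b, which delivers ubiquitinated proteins to the cap, at 15.5 RPKM in Nedd4-/- and 28.3 RPKM in Nedd4+/+ cells (-0.52) and Nploc4, a cofactor of the segregase, at -0.27. Of 11 genes listed as regulators of proteasome genes and their partners 8 lay below. Among the 8 is the gene Nrf1 (-0.08), which does not encode the NRF1 protein made from Nfe2l1. Ddi2 (-0.18), also among them, is counted with the shuttle factors too. Nfe2l1 was at 4.86 RPKM in Nedd4-/- and 9.496 RPKM in Nedd4+/+ cells (-0.53), while Nfe2l2, its relative of the oxidative stress response, was at 2.24 and 2.13 RPKM (0.36) and Nfya, a subunit of NF-Y, also at 0.36. Stat3 was at -0.32.

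The kb upstream of each gene was compared next, where transcription around the promoter is read. As over the whole genome, most windows of proteasome genes had a higher level in the Nedd4-/- library, though not those of higher level: over the 12 windows whose mean reached 0.5 RPKM the median log2 ratio was -0.01. Of 46 windows, 31 had a mean of 0.2 RPKM or more. With 0.1 RPKM added, 24 of them were higher in Nedd4-/- cells, against 71.2% of 11837 windows compared, and 5 were at least 2-fold higher, against 19.8%. Each of the 5 was under 0.2 RPKM in Nedd4+/+ cells and passed the minimum through its Nedd4-/- value, so that their number is a description. With no minimum, 8 of 46 windows were at least 2-fold higher, against 4468 of 23288. None was at least 2-fold lower (0.794% of all windows). The median log2 ratio was 0.50 for proteasome genes and 0.41 for all windows.

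Windows with and without another annotated gene were set apart. The highest levels were those of Psmc5, at 5.03 RPKM in Nedd4-/- and 6.41 RPKM in Nedd4+/+ cells, Psmc2, at 2.46 and 3.61 RPKM, and Psma2, at 2.35 and 2.38 RPKM. The annotation places Ftsj3, Dnajc2 and Mrpl32 in these windows, and without strand their reads cannot be told apart from those of the promoter. The 11 windows with another gene had a median log2 ratio of -0.10, and 4 of them were higher in Nedd4-/- cells. The 20 windows with no other gene had a median of 0.63, and ranged from 0.00 for Psmc1 to 1.79 for Psmc4. Many of these passed the minimum through the Nedd4-/- value. With no minimum, 30 of the 32 windows with no other gene were higher in Nedd4-/- cells, at a median of 0.60. Psmd7 (-0.02) and Psmf1 (-0.32) were lower. Of the 14 windows with another gene, 6 were higher, at a median of -0.06. Over the whole genome with no minimum, 17662 of 23288 windows were higher, at a median of 0.45. The windows of the whole genome were not split by neighbouring gene, so that neither set has a like set beside it. The windows with no other gene held few reads. The window of Psmc4 had 0.655 RPKM in Nedd4-/- and 0.119 RPKM in Nedd4+/+ cells, or 20 and 4.94 read pairs (interval 1.00 to 4.25), that of Psmc6 0.364 and 0.0564 RPKM (11.1 and 2.35 pairs), and that of Psmd1 0.440 and 0.128 RPKM (13.4 and 5.31 pairs). Psma1 and Psmb4 were the other windows at least 2-fold higher, at log2 ratios of 1.00 and 1.05. The median difference of the 20 windows was 0.184 RPKM, against 0.133 RPKM over all windows compared, which include windows with another gene. Of the 3 genes with the lowest gene ratios, Psmb5 had an upstream level of 0.221 RPKM in Nedd4-/- and 0.0663 RPKM in Nedd4+/+ cells, Psmd3 0.277 and 0.192 RPKM, and Psmd8 0.208 and 0.0848 RPKM. The first and the last of these are under the minimum, the window of Psmd8 holds Catsperg1, and the intervals of all 3 include 0, so that no difference was detectable at this depth.

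**Figure D4:**
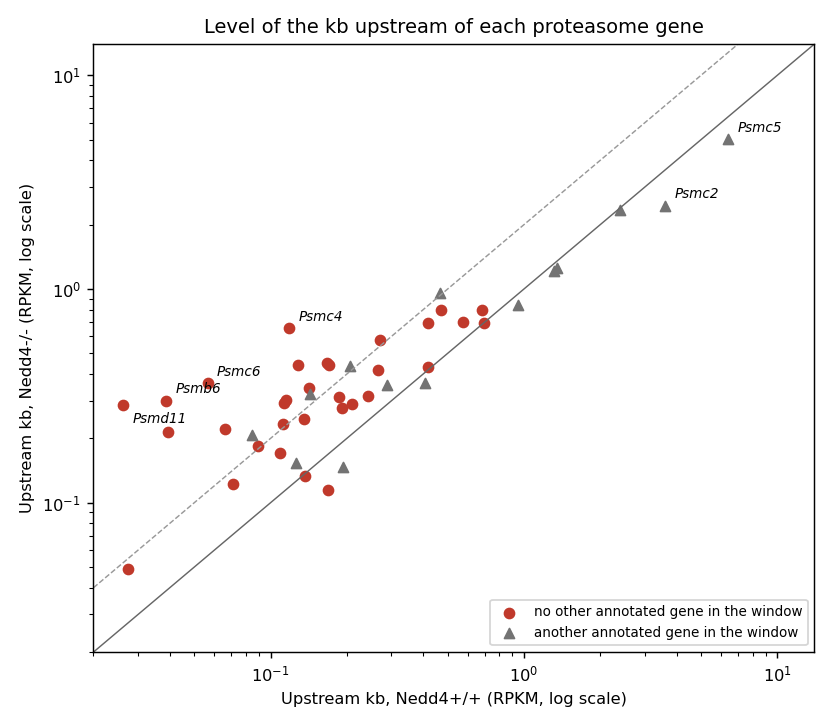
Level of the kb upstream of each proteasome gene in RPKM, Nedd4-/- on the vertical and Nedd4+/+ on the horizontal axis, both on log scales, with a solid line of equal level and a dashed line of 2-fold higher level in Nedd4-/-. The highest levels are those of windows that hold another annotated gene (triangles), of which Psma4, Psmb3, Psmd8 and Psmd13 lie above the dashed line, and most windows without one (circles) lie above the solid line.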

How the data were processed

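Ribosomal RNA was removed and 1 library of each genotype was sequenced. Per the submitters' processing notes, TopHat, Cufflinks and build mm9 were used (roles and versions unstated). The authors deposited RPKM for 1 RefSeq transcript per gene, per the file headers. The deposited upstream values are a ratio: multiplied by the gene's RPKM plus 0.0001, 100% of 12512 low Nedd4-/- windows and 99.99% of 16819 low Nedd4+/+ windows gave whole read bases of a 1000-nt window within 0.05 bases. This product is the upstream level used here, and its step gives the depth. Neither strandedness nor the handling of multiply mapped reads is stated in the sources used.

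Log2 ratios are log2((Nedd4-/- + 1)/(Nedd4+/+ + 1)) in RPKM, which understates differences of low genes, where the mean reached 1 RPKM; upstream, 0.1 RPKM was added and the minimum was 0.2 RPKM. Read pairs were computed from depth, lengths of GENCODE M21 transcripts (97.1% of genes matched) and read length, with scipy 1.17.1 and pandas 2.3.3; intervals were tested on simulated data. The authors' transcript lengths may differ, so pairs are approximate. The reference is GRCm38, and no mm9 coordinates are given. Shared words are stretches of 1 read length of a member's transcript found in a transcript of another annotated gene on either strand. Every member may be named; full values go to the catalytic subunits, ATPases, activators and the ends of each role, and to up to 4 genes of each related list with the largest absolute relative log2 ratio; some genes that this rule takes are not reported by name here. Pomp, Shfm1, Nrf1 and Ddi2 are named besides, to show the limits of the groups and lists. Members and lists were chosen with earlier results of these data known.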

Additional observations from a re-analysis of the deposited data

How the results depend on the processing

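No member was at least 2-fold apart in either direction under any of the alternatives run. The median log2 ratio of the members, -0.40 as deposited, moved with the scaling: it was -0.085 relative to all genes, 0.017 with the libraries scaled to the same upper quartile, -0.095 relative to genes of the same length decile and 0.0021 relative to the same level decile. Under the same 4 settings, in that order, the core (-0.33 as deposited) had -0.018, 0.092, -0.061 and 0.077, the cap (-0.43) -0.11, -0.028, -0.14 and -0.041, the activators (-0.40) -0.092, -0.0023, -0.12 and -0.069, and the assembly factors (-0.13) 0.18, 0.24, 0.13 and 0.21. Without pseudocount and relative to all genes (added after seeing the data), the medians were -0.025 for the members, 0.051 for the core, -0.074 for the cap, -0.047 for the activators and 0.23 for the assembly factors. In each, the cap median was below that of the core and the assembly factors above both. With 0.1 or 5 RPKM added, no minimum, a minimum of 5 RPKM, or without members that share 5% or more of their words (added after seeing the data), these medians moved by less than the counting error of a typical member. The median upstream log2 ratio ranged from 0.24 to 0.63 under the other alternatives but was -0.01 with a minimum of 0.5 RPKM and 0.09 relative to all windows; leaving out windows with another gene (added after seeing the data) gave 0.63. No paired analysis was possible because each genotype has 1 library, and no library could be left out. Upstream windows held few read pairs, which limits single values.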
